A study of Mus musculus with 12 samples.

Results

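The 9 genes described here move thyroid hormone into cells, switch it on or off, recover its iodide, hold it in the cytosol or carry its message to DNA. They were chosen by name, with earlier results of these data known: Slco1c1, Slc16a10, Dio2, Dio3, Iyd, Slc5a5, Crym, Thra and Thrb. Each has 1 entry on the array that carries its symbol alone. They are 9 of 19938 genes that can be named by a single symbol, and all 9 are among the 16306 genes that could be tested because their mean log2 signal exceeded 6 in at least 1 group. Dio3 passed this level through 1 group and Iyd through the P8 groups alone, as given with their values.

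The samples are 12 Affymetrix Mouse Gene 1.0 ST arrays of cochlear RNA from wild-type C57BL/6 mouse pups at postnatal day (P) 0 and P8, with no treatment in any group. After the otic capsule was removed, the tissue, which held the organ of Corti, the spiral limbus and the lateral wall, was divided along its length into base, middle and apex, and each region was pooled over many temporal bones. The dissection was done in 2 sets at each age, which gives 2 arrays to each combination of age and region (6 groups), and the 3 regions of a set at 1 age are pieces of the same pool of cochleae. A whole-tissue signal cannot tell fewer cells of a type from less RNA per cell.

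Thyroid hormone circulates mainly as thyroxine, which crosses cell membranes through carrier proteins and is converted inside cells to the active hormone triiodothyronine by removal of an iodine atom. The active hormone binds nuclear receptors that switch target genes on or off, usually together with retinoid X receptors. The cochlea depends on this hormone before the onset of hearing, and hearing loss follows when the hormone, the receptor encoded by Thrb or the activating enzyme encoded by Dio2 is missing during that time.

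Promoter sequences were taken from RefSeq (GRCm38.p6), as windows from 250 bases before to 50 bases after an annotated transcript start. The table holds 8 such windows for 7 of the 9 genes, with 2 starts for Thrb, and Crym and Thra have no entry in it. The windows of Slco1c1 and Dio2 are shown because these genes rose most from P0 to P8, that of Dio3 because its product opposes that of Dio2, and 1 of Thrb because it is the only one of the 8 that holds the receptor half-site AGGTCA. Capitals mark TATAAA in the first 3 and AGGTCA in the last, and all are written 5′ to 3′ on the strand of the gene.
Slco1c1, chr6:141524104-141524403, plus strand: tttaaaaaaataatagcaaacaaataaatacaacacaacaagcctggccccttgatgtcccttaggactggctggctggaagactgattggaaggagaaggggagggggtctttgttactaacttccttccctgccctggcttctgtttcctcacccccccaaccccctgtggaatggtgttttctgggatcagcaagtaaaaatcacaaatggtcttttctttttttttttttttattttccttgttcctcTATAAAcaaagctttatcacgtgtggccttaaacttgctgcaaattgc
Dio2, chr12:90738989-90739288, minus strand: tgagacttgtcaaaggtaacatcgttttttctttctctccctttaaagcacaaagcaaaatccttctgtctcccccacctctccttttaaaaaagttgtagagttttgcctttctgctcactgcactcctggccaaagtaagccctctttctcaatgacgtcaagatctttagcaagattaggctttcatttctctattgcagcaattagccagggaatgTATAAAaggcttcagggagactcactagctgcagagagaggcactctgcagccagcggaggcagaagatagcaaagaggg
Dio3, chr12:110278980-110279279, plus strand: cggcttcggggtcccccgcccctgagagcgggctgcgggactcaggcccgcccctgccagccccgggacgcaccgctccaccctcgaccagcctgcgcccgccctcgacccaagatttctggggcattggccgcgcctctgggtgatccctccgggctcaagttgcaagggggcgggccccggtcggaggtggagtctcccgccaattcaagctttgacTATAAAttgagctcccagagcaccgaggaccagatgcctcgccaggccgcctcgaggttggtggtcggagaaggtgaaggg
Thrb, chr14:17660710-17661009, plus strand: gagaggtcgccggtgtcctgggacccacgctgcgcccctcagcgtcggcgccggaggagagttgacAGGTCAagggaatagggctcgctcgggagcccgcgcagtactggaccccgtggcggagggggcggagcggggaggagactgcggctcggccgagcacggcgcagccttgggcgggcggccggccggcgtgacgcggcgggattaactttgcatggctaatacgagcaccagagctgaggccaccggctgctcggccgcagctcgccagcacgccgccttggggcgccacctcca

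TATAAA, the core of the classical TATA box, begins 30 bases before the start in Dio2, 31 bases before it in Dio3 and 29 bases before it in Iyd. Among all 32851 promoter windows of the table, 1.75% have TATAAA on the gene's strand beginning 25 to 35 bases before the start, and 13.6% have it anywhere on either strand. In Slco1c1 it lies 2 bases after the start, and in the other Thrb window 167 bases before it. AGGTCA was found on either strand in 16.3% of all windows and in 1 of the 8 of these genes, 184 bases before the start of Thrb. The direct repeat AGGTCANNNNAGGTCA, the arrangement of half-sites on which thyroid hormone receptors are best known to bind, is in 5 of all windows (0.0152%) and in none of these 8, which says only that these letters are not in these windows. The windows of Slco1c1, Dio2 and Iyd hold 42%, 44.7% and 49% G and C bases. Those of Slc16a10, Slc5a5 and Dio3 hold 65.3%, 67% and 69%, and those of Thrb hold 72.7% and 46%.

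The largest differences were between ages. Slco1c1, a carrier of thyroxine, and Dio2, the activating deiodinase, rose 12.0-fold and 15.9-fold from P0 to P8 over the 3 regions. Slc5a5, the iodide carrier of the thyroid follicle, rose 2.39-fold, and Crym, a cytosolic protein that binds the active hormone, fell 4.04-fold. The carrier Slc16a10 was higher at P8 by 1.92-fold, under the 2-fold threshold of this comparison. So was the iodide-recovering enzyme Iyd, by 1.92-fold, but Iyd was included only because its P8 signals were high. The inactivating deiodinase Dio3 and the receptors Thra and Thrb did not pass. By limma with Benjamini-Hochberg adjustment over all genes, an adjusted p under 0.05 and a fold of at least 2 called 4 of the 9 genes, 3 higher and 1 lower, where the same rule called 3.2% of all 16306 genes. Since the 9 were chosen with earlier results of these data known, this share is no test of them as a set. The P8 arrays did not overlap the P0 arrays for Slco1c1, Slc16a10, Dio2, Slc5a5 and Crym, and for 15.5% of all tested genes. Those of Iyd were 0.07 apart at their nearest, but Iyd is not counted here because it was included only through its P8 groups.

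These calls treat the 6 arrays of an age as separate samples although they are pieces of 2 pools. When the 3 regions of each pool were averaged first, which leaves 2 pools per age, limma called 5 genes of all tested (0.0307%), and Dio2 was 1 of them with an adjusted p of 0.0365. Slco1c1 (adjusted p = 0.0514), Crym (0.0751), Slc16a10 (0.156) and Slc5a5 (0.256) then missed the threshold, with the same differences. At an unadjusted p under 0.05 the pool averages held these 4 and Dio2, and 12.8% of all tested genes. Iyd had such a p too and is not counted, since it was included only through its P8 groups.

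**Figure D1:**
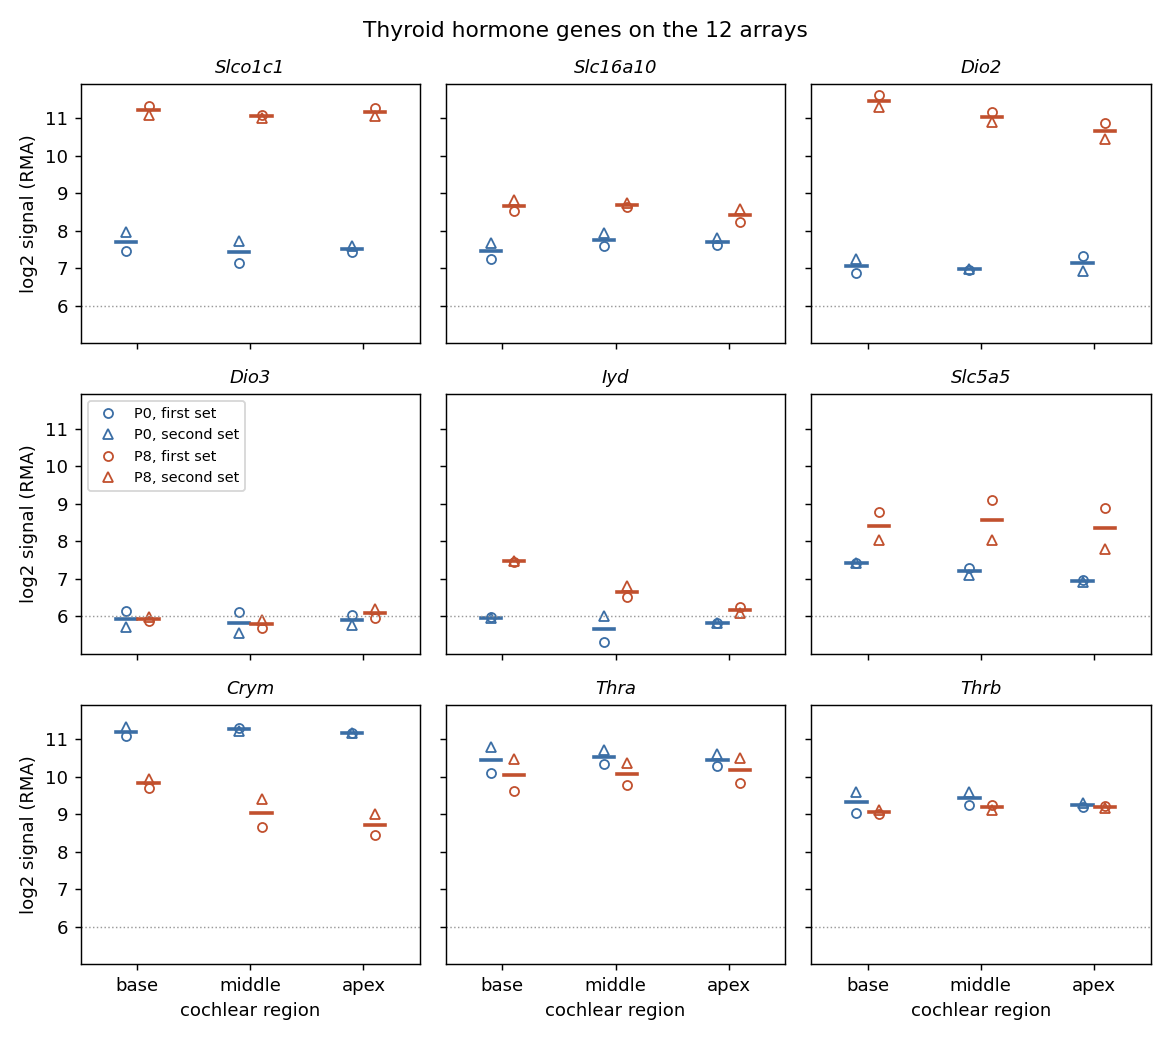
Log2 signal of the 9 genes (vertical axis, robust multiarray average) in base, middle and apex (horizontal axis) at P0 and P8, with circles for the first and triangles for the second dissection set, bars for the mean of 2 arrays and a dotted line at the log2 level of 6. Slco1c1 and Dio2 lie between 6.86 and 7.96 at P0 and between 10.43 and 11.60 at P8, Crym lies lower at P8, and Thra and Thrb overlap between ages.

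Slco1c1 encodes OATP1C1, an organic anion transporter with high affinity for thyroxine that is best known from brain capillaries and the choroid plexus (array entry 10542596). At P0 its log2 signals in the first and second set were 7.46 and 7.96 in the base, 7.14 and 7.73 in the middle, and 7.43 and 7.60 in the apex. At P8 they were 11.32 and 11.09 in the base, 11.09 and 11.00 in the middle, and 11.28 and 11.07 in the apex. The lowest P8 array stood 3.04 above the highest P0 array, and no 2 neighbouring regions of 1 age were apart in their arrays. The rise was 3.49 ± 0.23 (log2 difference ± SE) for the base, 3.61 ± 0.23 for the middle and 3.66 ± 0.23 for the apex, with adjusted p-values of 0.00034, 0.00020 and 0.00021. In the first set the mean rise over the regions was 3.89 and in the second 3.29.

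Slco1c1 thus rose by similar amounts in the 3 regions, and the change of its apex-base difference between ages was 0.16 ± 0.33 (adjusted p = 1.0). Its 3 most similar genes over the 12 arrays were Egfr (Pearson's r = 0.994), Clca2 (0.992) and Bcam (0.991), all arrays sharing 4 pools. Of the 8 endothelial marker genes, whose cells carry this transporter in the brain, none passed between ages, and their summed linear signal was 4095 to 5547 at P0 and 5014 to 6140 at P8. Of the 5 pericyte markers 1 passed as higher at P8, where 2.06% of all tested genes did. The pericyte sums were 1965 to 2251 at P0 and 2739 to 3725 at P8. The part of these cells in the change of Slco1c1 was not tested.

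Slc16a10, which encodes the aromatic amino acid and thyroid hormone carrier MCT10 (array entry 10368720), changed in the same direction and by less. Its log2 signals at P0 were 7.24 and 7.67 in the base, 7.58 and 7.95 in the middle, and 7.61 and 7.80 in the apex. The P8 values were 8.52 and 8.82, 8.62 and 8.74, and 8.24 and 8.58 in the same order. The ages were 0.29 apart at their nearest arrays. Over the 3 regions the difference was 0.94 ± 0.12 (adjusted p = 0.00093).

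With the 1.5-fold threshold used for single regions, Slc16a10 rose in the base by 1.21 ± 0.21 (adjusted p = 0.0171) and in the middle by 0.92 ± 0.21 (0.0488), and in the apex the difference of 0.70 ± 0.21 did not pass (0.113). When the dissection set was a replicate block in the fit (set as replicate block hereafter), which compares P8 and P0 arrays of 1 set, the apex passed as well (adjusted p = 0.00185). In the middle the call was lost without any filter on low values (adjusted p = 0.0517) and in 10 of the 12 fits that left out 1 array. It held there only without the first or the second P0 base array (0.0495 each). In the base the call was lost without the first P0 base array (1.0, adjusted p = 0.131), the first P8 base array (1.36, 0.0625) or the second (1.06, 0.126). Over the 3 regions the 2-fold threshold was passed without the second P0 base array (1.02, 0.00161), the second P0 middle array (1.0, 0.00205) or the first P8 apex array (1.0, 0.00215). The genes most like it over the 12 arrays were Myd88 (r = 0.982), Osgin2 (0.982) and Enpp5 (0.978).

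Dio2 encodes the type 2 deiodinase, which removes an outer-ring iodine from thyroxine and so makes the active hormone inside the cell (array entry 10401841). At P0 its log2 signals were 6.86 and 7.25 in the base, 6.96 and 6.98 in the middle, and 7.34 and 6.92 in the apex. At P8 they were 11.60 and 11.30 in the base, 11.16 and 10.89 in the middle, and 10.87 and 10.43 in the apex. At P8 the base was highest and the apex lowest with no overlap between neighbouring regions, while the P0 regions overlapped throughout.

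The rise of Dio2 was 4.40 ± 0.23 in the base (21.0-fold), 4.05 ± 0.23 in the middle (16.6-fold) and 3.52 ± 0.23 in the apex (11.5-fold), with adjusted p-values of 7.5e-05, 0.00017 and 0.00021. It was the largest rise among the 9 genes over the regions, 4.15 in the first set and 3.82 in the second. At P8 the apex was lower than the base by 0.74 in the first set and by 0.87 in the second, a mean difference of -0.81 ± 0.23. This missed the threshold (adjusted p = 0.497), also with set as replicate block (0.0629). It passed when the pool of cochleae from which both regions came was the block (0.00833). At P0 the sets disagreed, with the apex higher by 0.48 in the first and lower by 0.34 in the second. The genes most like Dio2 over the 12 arrays were Rasl12 and Prss36 (r = 0.993 each) and Sorl1 (0.991).

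Dio3 encodes the type 3 deiodinase, which removes an inner-ring iodine and so inactivates both hormones (array entry 10398446). Its log2 signals lay between 5.55 and 6.19 on all 12 arrays, and only the P8 apex, with a mean of 6.08, exceeded the log2 level of 6. No order of the other groups is read. The difference between ages was 0.05 ± 0.13 (adjusted p = 0.839), with -0.25 in the first set and 0.35 in the second. The difference between the Dio2 and Dio3 signals of the same array ran from 0.72 to 1.54 at P0 and from 4.24 to 5.72 at P8. Because the 2 entries have different probes, only its change is read, which was 4.41 in the first set and 3.47 in the second, where the Dio2 signal alone changed by 4.15 and 3.82. Its closest genes had an r of 0.884 (Gm9734), 0.866 (Foxo3) and 0.860 (Lingo3), the lowest values among the 9 genes.

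Iyd encodes iodotyrosine deiodinase, which frees iodide from iodotyrosines so that it can be used again (array entry 10367691). At P0 its log2 signals were 5.97 and 5.97 in the base, 5.32 and 6.01 in the middle, and 5.82 and 5.83 in the apex, with all 3 group means under the level of 6. At P8 the signals were 7.46 and 7.48 in the base, 6.52 and 6.80 in the middle, and 6.25 and 6.08 in the apex. The P8 regions did not overlap, with the base highest and the apex lowest. Since this gene passed the level only through its P8 groups, a difference between ages had to be positive, and its size is given as a description with no test.

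The difference between P8 and P0 was 1.5 in the base (1.49 and 1.51 in the 2 sets), 0.99 in the middle (1.20 and 0.79) and 0.34 in the apex (0.42 and 0.25). That in the middle moved between 0.65 and 1.34 when 1 array was left out, the second of the P0 middle arrays giving the higher value and the first the lower. At P8 the apex was lower than the base by 1.21 in the first set and 1.39 in the second. The mean difference of -1.30 ± 0.21 missed the threshold (adjusted p = 0.0816), passed with set as replicate block (0.00427) and passed with the pool as block (0.000355). It also passed when 1 or the other of the P0 middle arrays was left out (0.0481 each) and when the arrays were quantile normalized again (-1.39, 0.0455). The genes most like Iyd were Ptgfr (r = 0.959), Gm10561 (0.943) and Ifitm5 (0.939), the last of them a gene of osteoblasts.

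Slc5a5 encodes the sodium-iodide symporter, which draws iodide into thyroid follicle cells (array entry 10579442). At P0 its log2 signals were 7.42 and 7.43 in the base, 7.28 and 7.11 in the middle, and 6.96 and 6.90 in the apex. The P8 values were 8.79, 9.11 and 8.89 in base, middle and apex of the first set, and 8.04, 8.03 and 7.80 in the second. All P8 arrays exceeded all P0 arrays, but at P8 the first set stood above the second in every region.

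Over the 3 regions Slc5a5 rose by 1.26 ± 0.24 (adjusted p = 0.00767), by 1.71 in the first set and by 0.81 in the second. In single regions the differences of 0.99 ± 0.42 (base), 1.37 ± 0.42 (middle) and 1.41 ± 0.42 (apex) did not pass (adjusted p = 0.330, 0.135 and 0.113). All 3 passed with set as replicate block (0.0282, 0.00524 and 0.00405). At P0 the apex was lower than the base by 0.45 and 0.52 in the 2 sets, a mean difference of -0.49 ± 0.42 with an adjusted p of 1.0, or 0.0507 with the pool as block and a fold of 1.40, under 1.5. The genes most like it were Efr3a and Gbp7 (r = 0.986 each) and Ddr2 (0.985).

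Crym encodes mu-crystallin, an NADP-dependent protein that binds triiodothyronine in the cytosol and is altered in a form of inherited deafness (array entry 10567546). It was the only one of the 9 genes that passed the 2-fold test with a lower signal at P8. At P0 its log2 signals were 11.08 and 11.32 in the base, 11.29 and 11.23 in the middle, and 11.18 and 11.17 in the apex. At P8 they were 9.71 and 9.95 in the base, 8.67 and 9.41 in the middle, and 8.44 and 9.01 in the apex. The lowest P0 array stood 1.13 above the highest P8 array, and at P8 the base stood above the other regions while middle and apex overlapped.

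Crym fell by 1.37 on the log2 scale in the base (SE 0.26, 2.58-fold, adjusted p = 0.0251), by 2.22 in the middle (SE 0.26, 4.65-fold, 0.00273) and by 2.45 in the apex (SE 0.26, 5.47-fold, 0.00160). The call in the base was lost when any 1 of the 4 base arrays was left out, with differences of -1.49 to -1.25 and adjusted p-values of 0.0996 to 0.167. At P8 the apex was lower than the base by 1.27 in the first set and 0.94 in the second, a mean difference of -1.11 ± 0.26. As for Iyd, this missed the threshold in the unblocked fit (adjusted p = 0.290) and passed with the dissection set (0.0123) and with the pool (0.000270) as a block. At P0 the apex-base difference was -0.02 ± 0.26 (adjusted p = 1.0). The genes most like Crym were Htr1b (r = 0.982), Gpc3 (0.979) and Lrp4 (0.977).

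Thra and Thrb encode the nuclear receptors of thyroid hormone, which bind DNA with and without the hormone. Thra (array entry 10381006) had log2 signals of 10.10, 10.34 and 10.30 in base, middle and apex of the first set at P0, and of 10.80, 10.72 and 10.60 in the second. The P8 signals were 9.62, 9.77 and 9.84 in the first set and 10.48, 10.36 and 10.50 in the second. Pooled over sets the ages overlapped, whereas within each set every P8 array lay below every P0 array. How many of all tested genes separate in this way was not counted.

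The difference of Thra between ages was -0.38 ± 0.22 (1.30-fold, adjusted p = 0.270), and with set as replicate block its adjusted p was 0.00361 at the same size, under the 2-fold threshold. In that blocked fit 49.7% of all tested genes had an unadjusted p under 0.05 at any fold. The differences of Thra were -0.50 in the first set and -0.26 in the second. Its similarity to other genes, led by Brpf1 (r = 0.993), Atxn7 (0.980) and Pick1 (0.979), is over arrays that differ by set as well as by age.

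Thrb (array entry 10412882) had log2 signals of 9.04 and 9.59 in the base, 9.25 and 9.60 in the middle, and 9.19 and 9.29 in the apex at P0. At P8 they were 9.0 and 9.11, 9.26 and 9.12, and 9.23 and 9.16 in the same order. The ages overlapped, and the difference was -0.18 ± 0.11 (adjusted p = 0.327), 0.00 in the first set and -0.36 in the second. The Thra signal minus the Thrb signal of the same array changed by -0.50 in the first set and by 0.10 in the second, so that the sets went opposite ways. The genes most like Thrb were Plxna2 (r = 0.917), Pstpip2 (0.909) and Nudcd1 (0.907).

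**Figure D2:**
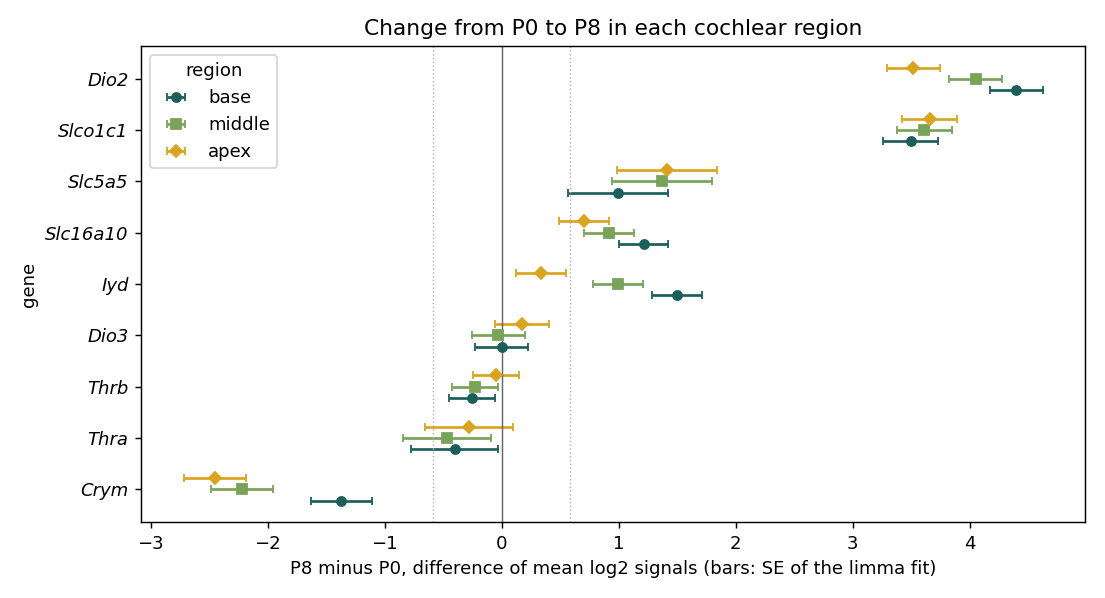
Difference of mean log2 signal between P8 and P0 (horizontal axis) for each of the 9 genes (vertical axis) in base, middle and apex, with bars for the SE of the limma fit and dotted lines at 1.5-fold. The differences of Dio2 and Iyd are largest in the base and smallest in the apex, Crym is nearest to 0 in the base, and Slco1c1 lies between 3.49 and 3.66 in all 3 regions.

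By region, the 1.5-fold rule called 4 of the 8 genes other than Iyd between ages in the base (Slco1c1, Slc16a10, Dio2 and Crym), the same 4 in the middle and 3 in the apex (Slco1c1, Dio2 and Crym), where it called 3.82%, 4.02% and 4.53% of all tested genes. The fit with set as replicate block called 5 of these 8 in each region (with Slc5a5, and with Slc16a10 in the apex), and 10.5%, 11.1% and 12% of all tested genes. A region passing in one comparison and missing in another does not show that the regions differ.

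Along the length of the cochlea, none of the 9 genes passed between apex and base at P0, in the unblocked limma fit or with either block. Of all 16306 tested genes the unblocked fit called 1 (0.00613%). With set as replicate block 110 were called, and with the pool as block 231. At an unadjusted p under 0.05 there were 0 of 9 in the unblocked fit and with set as replicate block, 2 with the pool as block (Slc16a10 and Slc5a5) and 2 by the methods' unpaired test (Slc5a5, and Iyd, whose P0 group means all lay under the level of 6). The shares of all tested genes at that p were 3.08%, 8.56%, 13.7% and 2.39% in the same order. At P8 the unblocked fit again called none of the 9, with 3 at an unadjusted p under 0.05 (Dio2, Iyd and Crym) where 4.28% of all tested genes had one, and it called 0.196% of all tested genes. With set as replicate block it called 2 (Iyd and Crym) and 1.58% of all tested genes, and with the pool as block 3 (with Dio2) and 2.81%. The methods' unpaired test called none, of the 9 genes or of all tested genes, with 1 of the 9 (Iyd) and 4.05% of all tested genes at an unadjusted p under 0.05. All 3 genes were lower in the apex.

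The test of whether these apex-base differences themselves changed from P0 to P8 called 0% of all tested genes in the unblocked fit (0 genes, with 333 or 2.04% at an unadjusted p under 0.05, among them Dio2, Iyd and Crym). The change was -1.16 ± 0.30 for Iyd, -1.08 ± 0.37 for Crym and -0.88 ± 0.32 for Dio2, each with an adjusted p of 1.0. With the pool as block, which called 0.926% of all tested genes, Iyd (adjusted p = 0.0311) and Crym (0.0136) passed and Dio2 did not (0.0953). None of the 9 passed with set as replicate block (Iyd 0.167, Crym 0.228, Dio2 0.441), though these 3 and Slc16a10 had an unadjusted p under 0.05, as did 6.52% of all tested genes. In each set the change had the same sign for all 3 genes. No apex-base difference of Iyd is read at P0, where its group means lay under the level of 6, so its change between ages is not read as a result.

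**Figure D3:**
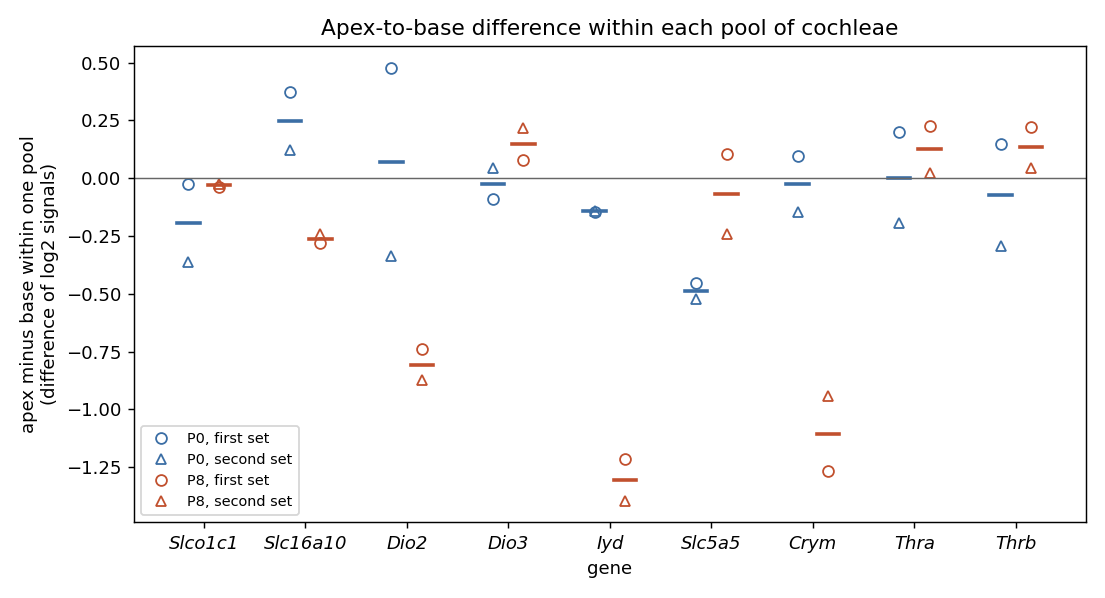
Apex minus base difference of log2 signal within each pool (vertical axis) for the 9 genes (horizontal axis) at P0 and P8, with circles for the first and triangles for the second dissection set and bars for their mean. At P8 both sets put Dio2, Iyd and Crym lower in the apex, by 0.74 to 1.39, while Dio2 and Crym fall on both sides of 0 at P0.

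Marker sums of other cells had different ranges in base and apex at P8. In the unblocked limma fit 0 genes of any marker list passed between apex and base at that age, where 0.196% of all tested genes did. Of 9 bone genes 7 were measured, and 6 of 6 tested passed as higher at P8, where 2.06% of all tested genes did. The summed linear signals of the bone genes were 646 to 903 over all P0 arrays. At P8 the sums were 7620 to 7879 in the base, 5611 to 6496 in the middle and 2901 to 5258 in the apex, although the otic capsule had been removed. The 5 genes of strial intermediate cells summed to 6846 to 8081 in the P8 base and 5028 to 6012 in the P8 apex, and those of marginal cells to 9529 to 10241 and 7523 to 7921. The 7 hair cell genes ran the other way, with 1654 to 2587 in the P8 base and 2892 to 3950 in the P8 apex. The 6 fibrocyte markers of the spiral ligament and limbus summed to 14531 to 15522 at P0 and 15297 to 16968 at P8, with 1 higher at P8. Their sums were 16395 to 16968 in the P8 base and 15297 to 15303 in the P8 apex. The part of these cells in the values of Dio2, Iyd and Crym was not tested.

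Other genes of the pathway were taken from 5 lists, chosen with earlier results of these data known. The shares of all tested genes beside their counts are therefore no test of a list. Among 8 tested of 11 further carriers, only Slco1a4, a relative of Slco1c1 that also carries organic anions across brain capillaries, passed the 2-fold test over the 3 regions, where 2.06% of all tested genes passed as higher. Of these 8 carriers, 6 (Slco1a4 among them) had an adjusted p under 0.05 at any fold, all higher at P8, against 18.7% of all tested genes. The log2 signals of Slco1a4 were 7.01 to 8.47 at P0 and 10.28 to 11.47 at P8, a rise of 3.14 ± 0.19 (8.81-fold), and the median difference of the list was 0.71 against 0.00 over all tested genes. Slco2b1 (0.81 ± 0.12), Slco1a5 (0.78 ± 0.14), Slc7a8 (0.86 ± 0.17), Slco3a1 (0.64 ± 0.13) and Slco4a1 (0.47 ± 0.12) were the 5 of them under 2-fold. Slc7a5 and Slc3a2, which together form an amino acid carrier that also takes the hormone, differed by -0.03 ± 0.10 and 0.14 ± 0.11.

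Of the genes of hormone synthesis and iodide handling, none of the 9 tested of 12 passed between ages by limma, in the unblocked fit or with set as replicate block. Their median difference was 0.19, 2 had an unadjusted p under 0.05 and 1 an adjusted p under 0.05 at less than 2-fold. The shares of all tested genes with such p-values at any fold were 31.2% and 18.7%. Tg, thyroglobulin, differed by 0.56 ± 0.08, and Slc26a4, pendrin, by 0.25 ± 0.13. Pax8 and Nkx2-1, transcription factors of the thyroid follicle, differed by 0.11 ± 0.09 and 0.19 ± 0.10. Tshr, the receptor of thyrotropin, and Dio1, the type 1 deiodinase, stayed at or under the log2 level of 6 in every group and were not tested.

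The partners and cofactors of the receptors did not pass between ages either, with 0 of 12 tested of 14 in both limma fits, 4 at an unadjusted p under 0.05, 1 at an adjusted p under 0.05 and less than 2-fold (Ncoa3, 0.41 ± 0.08), and a median difference of -0.09. Over all tested genes 31.2% had an unadjusted and 18.7% an adjusted p under 0.05 at any fold. The retinoid X receptor genes Rxra and Rxrb differed by -0.36 ± 0.14 and -0.35 ± 0.13. Rxrg differed by -0.64 ± 0.32, with log2 signals of 7.03 to 8.82 at P0 and 6.50 to 8.11 at P8. With set as replicate block the adjusted p was 3.2e-05 for Rxrg, 0.00836 for Rxra, 0.0370 for Rxrb and 0.00655 for Tbl1xr1. These differences too were under 2-fold. In that fit 49.7% of all tested genes had an unadjusted p under 0.05 at any fold. Among the carriers of hormone in serum only Ttr, transthyretin, was tested, and it differed by -0.77 ± 0.41 (adjusted p = 0.241), by -0.37 without the second P0 base array (adjusted p = 0.429) and by -1.17, past the test, without the first.

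Of the genes known to respond to thyroid hormone, 5 of 11 tested of 13 passed as higher and none as lower, with a median difference of 0.87, where 2.06% of all tested genes passed as higher and 1.14% as lower. This list too was chosen with earlier results of these data known. At any fold 9 of the 11 had an adjusted p under 0.05 (all higher but Ngfr), against 18.7% of all tested genes. These calls too take the pieces of 2 pools as separate arrays, and on pool averages Slc26a5 passed (adjusted p = 0.0365) while Hr (0.0783), Kcnma1 (0.115), Klf9 (0.129), Kcnj10 (0.236) and the carrier Slco1a4 (0.0615) did not. Klf9 and Hr, a transcription factor and a corepressor that are common readouts of the hormone, rose by 1.33 ± 0.16 (2.51-fold) and 1.16 ± 0.09 (2.24-fold). Klf9 had log2 signals of 8.13 to 8.60 at P0 and 9.28 to 10.04 at P8, and Hr of 6.98 to 7.3 and 8.00 to 8.41, so that neither overlapped between ages. Slc26a5, prestin, the motor protein of outer hair cells, rose by 3.05 ± 0.12 (8.31-fold), from 5.65 to 6.75 at P0 to 8.35 to 9.76 at P8. The potassium channel genes Kcnj10 and Kcnma1 rose by 1.89 ± 0.35 and 1.1 ± 0.12.

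The other genes of that list stayed under 2-fold. Mbp, myelin basic protein, differed by 0.87 ± 0.12, Tectb, a protein of the tectorial membrane, by 0.80 ± 0.12, and Ngfr, a neurotrophin receptor, by -0.68 ± 0.13. Thrsp, Me1 and Nrgn differed by 0.35, 0.28 and 0.17. Kcnj10 and Mbp also stand on the marker lists of strial intermediate cells and Schwann cells. The summed linear signal of the intermediate cell markers was 2437 to 3568 at P0 and 5028 to 8081 at P8, and that of the 3 measured Schwann cell markers 2478 to 3498 and 4089 to 7801, and their part in these differences was not tested.

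**Figure D4:**
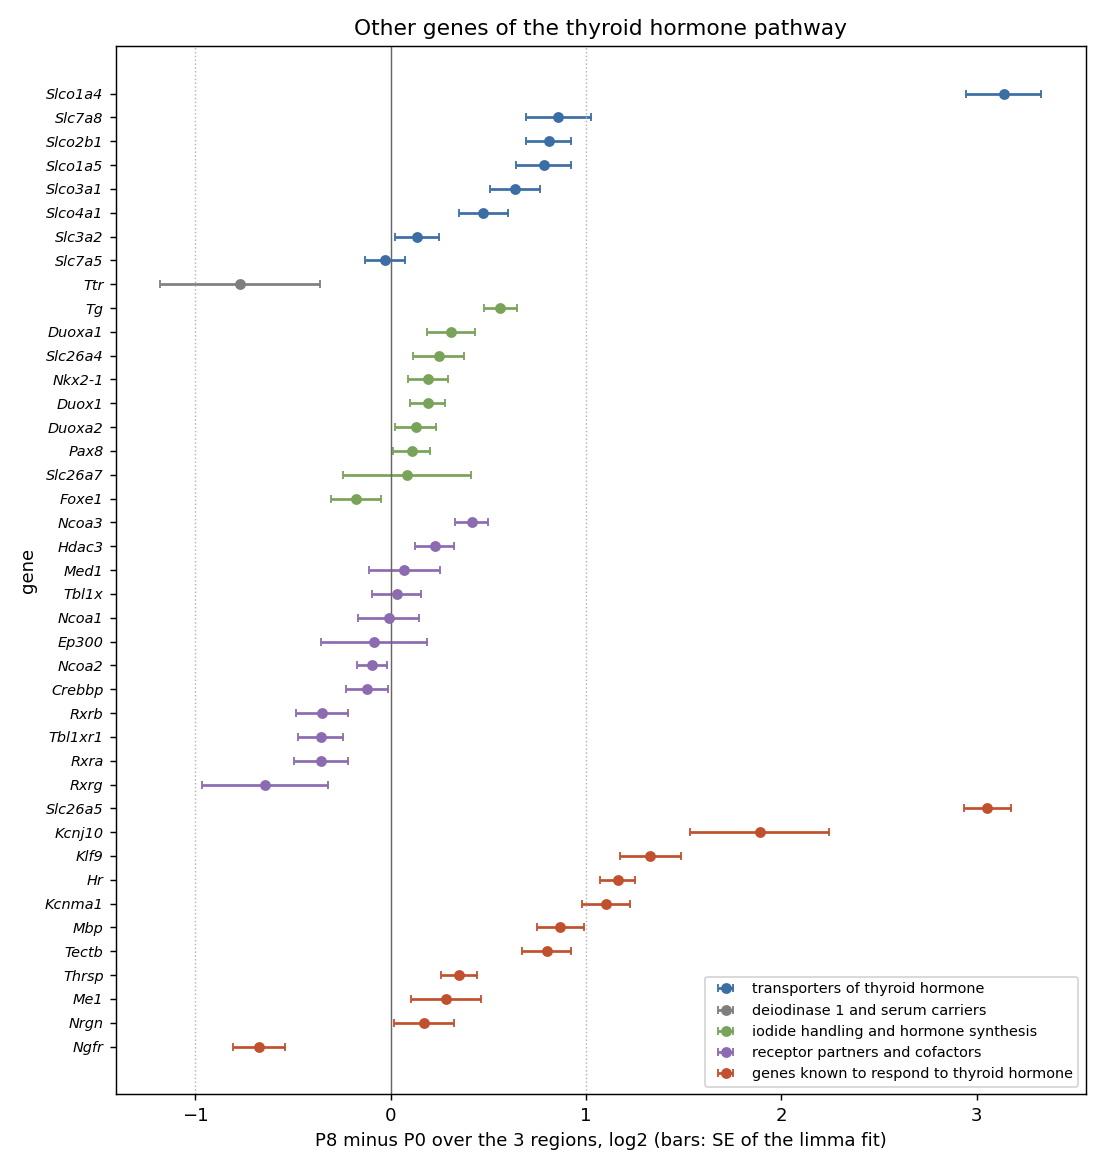
Difference between P8 and P0 over the 3 regions on the log2 scale (horizontal axis) for the tested genes of the 5 pathway lists (vertical axis, coloured by list), with bars for the SE and dotted lines at 2-fold. Slco1a4 and Slc26a5 lie beyond 3, the other genes past 2-fold are Kcnj10, Klf9, Hr and Kcnma1, and the receptor partners lie between -0.64 and 0.41.

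Between apex and base no gene of the 5 lists passed in the unblocked limma fit, at P0 or at P8. At an unadjusted p under 0.05 there were 1 of the 8 further carriers and 2 of the 11 responsive genes at P0. The share of all tested genes was 3.08%. At P8 there were 1 of the 12 receptor partners and 3 of the 11 responsive genes, against 4.28% of all tested genes. With set as replicate block at P0, Tectb (1.14 ± 0.22) and Rxrg (0.92 ± 0.56) were higher in the apex (adjusted p = 0.00761 and 0.0106, with the SE of the unblocked fit). The blocked fit called 110 of all 16306 tested genes there. With set as replicate block at P8, Slc26a5 (1.24 ± 0.21), Tectb (1.15 ± 0.22), Me1 (0.61 ± 0.31) and Rxrg (0.59 ± 0.56) were higher in the apex (adjusted p = 0.00613, 0.00185, 0.0242 and 0.0339, with the SE of the unblocked fit). Slc26a7, an anion exchanger of the iodide list, was lower there by 0.81 on the log2 scale (adjusted p = 0.0266). The blocked fit called 1.58% of all tested genes between apex and base at P8.

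As to the arrays themselves, tested genes had a median log2 signal of 8.02 to 8.19 on each, and the 2 arrays of 1 group differed with a median SD of 0.175. The second P0 base array stood apart in Ttr, with 12.19 where the other P0 arrays had 9.70 to 9.89. The first P0 apex array stood apart in skeletal muscle genes, with a summed linear signal of 2682 where the others had 886 to 1306. The calls of Slco1c1, Dio2, Slc5a5 and Crym over the 3 regions held without either of these arrays, and Slc16a10 passed 2-fold without the former (1.02, adjusted p = 0.00161). Of 8 skeletal muscle genes tested of 9, none passed between ages.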

How the data were processed

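RNA of 3 regions of the mouse cochlea at 2 ages was hybridized to 12 Affymetrix Mouse Gene 1.0 ST arrays. The authors made the deposited log2 signals by robust multiarray averaging (RMA), which subtracts background, makes the arrays comparable and summarizes the probes of each entry. Its version, and whether both dissection sets went through 1 run, are not given in the sources used here. RMA shrinks differences of dim genes. Of 35556 entries, 21789 carried 1 symbol in the platform annotation; entries with several symbols (1621) or none (12146) were not used here. Where a gene had more than 1 entry, the brightest on average was taken. Genes with a mean above 6 in at least 1 of 6 groups were tested (16306).

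limma 3.58.1 in R 4.3.3 fitted the 6 group means over all arrays (lmFit, eBayes), without a block since the methods name an unpaired test, and p-values were adjusted by Benjamini-Hochberg over all tested genes. To pass, a gene needed an adjusted p under 0.05 and 2-fold over the 3 regions or 1.5-fold elsewhere, with no fold asked for the change of the apex-base difference. Replicates are 2 dissection sets per group, and their number, with the pooling, limits the precision. The set number pairs the samples, since the regions of 1 age and set share a pool and the deviations of same-set arrays correlated at 0.544 to 0.916 over all 15 pairs of groups. The fit with the dissection set as replicate block (set as replicate block) is given beside the results whose call it changes. The pool of each age as a block, pool averages, other filters (none, and a level of 7), quantile normalization again, centring on array medians, a variance trend, the mean of a gene's entries, the methods' unpaired test and leaving out each array were alternatives. The fit was tested on simulated data.

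The 9 genes, the pathway and the marker lists were chosen with earlier results of these data known. Named besides the 9 were list genes past the test, reference points of the pathway, and the 3 tested genes with the highest Pearson's r to each of the 9 over 12 arrays, given without a p. Marker sums add linear signals over all single-symbol genes of a list. Promoters were searched for motifs on both strands with Python 3.11.15. Tables used numpy 2.4.6 and pandas 2.3.3, and figures matplotlib 3.10.9.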

Additional observations from a re-analysis of the deposited data

Results flagged for a closer look

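The change of the apex-base difference between ages passed for 2 of the 9 genes in the limma fit with the pool as block. Of these, only that of Crym is read as a change, since Iyd passed the log2 level of 6 through its P8 groups alone. For Iyd the change was -1.16 (adjusted p = 0.0311), with -1.30 at P8 and no difference read at P0, where all its group means lay under the log2 level of 6. For Crym it was -1.08 (adjusted p = 0.0136), from -0.02 to -1.11. Without a block both had an adjusted p of 1.0, and with set as replicate block 0.167 and 0.228. Groups of 2 arrays are too small for a search for outlying arrays.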

How the results depend on the processing

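Counts here include Iyd, which entered the test only through its P8 groups, so its passes between ages are not read as a result. Over the 3 regions, 4 of the 9 genes and 3.2% of all tested genes passed between P0 and P8. When the 3 regions of each pool were averaged first, 1 of the 9 and 0.0307% of all tested genes passed. The methods' unpaired test was adjusted here over all tested genes, although the methods name no adjustment. By that test 0 passed in any single region, of the 9 genes or of all tested genes. By limma 5 (base), 5 (middle) and 3 (apex) passed, or 4, 4 and 3 without Iyd, against 3.82%, 4.02% and 4.53% of all tested genes. At an unadjusted p under 0.05 the unpaired test had 5 (Iyd among them), 4 and 3 of the 9. The shares of all tested genes were 8.78%, 8.88% and 9.15% in the same order. With set as replicate block 5 passed in the apex, and 12% of all tested genes. Between apex and base at P8, where 0 passed without a block, 2 passed with set as replicate block, 3 with the pool as block and 1 after quantile normalization again. Of all 16306 tested genes, these 4 fits called 32, 257, 458 and 38 in the same order, so calls rose with a block among all genes too. For the change of the apex-base difference 2 passed with the pool as block against 0 without a block, where 0.926% and 0% of all tested genes passed. Leaving out 1 array in turn gave counts of 2 to 5 in the base, 3 to 4 in the middle and 0 to 1 between apex and base at P8; counts over the 3 regions were 4 to 6. Of 1280 single values recomputed for the 9 genes, 1175 kept their sign and their side of the threshold, 48 lost and 18 gained a call, and 39 values that were not called changed sign, all from differences of at most 0.42. No called value changed sign. Dio3 was not tested at the stricter level of 7. Calls of Slc16a10 in the base and middle, and that of Crym in the base, were lost when some of the single arrays were left out, which also leaves fewer arrays to the fit. Signals near the log2 level of 6 (Dio3, and Iyd at P0) limit what can be read from these genes.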
